A study of Rattus norvegicus with 90 samples.

Results

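Kidney tissue taken 8 h after a high dose of thioacetamide was compared with kidney tissue taken 8 h after vehicle, in 10 of the 90 RNA-seq samples of a rat study. The members were chosen by the sample labels for tissue, duration and dose, which gave 5 high-dose samples and 5 vehicle samples. Sprague-Dawley rats received vehicle, a low dose or a high dose, and liver, kidney and heart were collected at 8 or 24 h, with 5 samples in each group. The kidney samples served to ask how organ-specific the response to a liver toxicant was. The vehicle group received saline at 3 ml/kg and the high-dose group received thioacetamide at 100 mg/kg, both as a single intraperitoneal injection. A low-dose group at 25 mg/kg, given side by side with the high dose, shared the vehicle samples. All were male rats bought at 10 weeks of age, with a jugular catheter implanted beforehand, and they had water but no food between injection and collection. Whole frozen kidneys were powdered before RNA extraction, so each library averages over all kidney regions and cell types.

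Thioacetamide is a small sulfur compound that is used in animals to injure the liver, where cytochrome P450 enzymes and flavin-containing monooxygenases oxidise it to reactive S-oxides that bind to proteins. The kidney filters blood in glomeruli and recovers water, salts, glucose and amino acids along the tubules, whose cells carry many transporters and enzymes that few other organs use. Gene names for these transcripts were not given in the tables used here. Transcripts are therefore named by their Ensembl identifiers, roles are not given, and the markers of kidney cell types could not be looked up.

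Each high-dose library held between 19170863 and 24877737 estimated counts, and each vehicle library between 22698751 and 30098569 (exact permutation test of the means, two-sided, p = 0.0714; p = 0.0159 without the high-dose library MS-57). Between 7.84 and 16.5% of the counts in the high-dose libraries, and between 8.05 and 19.5% in the vehicle libraries, fell on genomic intervals rather than on transcripts. The tissue label was checked against the ranks of all transcripts in the vehicle libraries of each organ at 24 h. Spearman's rho was 0.907 to 0.926 to kidney, 0.808 to 0.826 to liver and 0.792 to 0.825 to heart over the 10 libraries. The lowest value to each of the organs belonged to the vehicle library MS-100. Libraries are named here by the MS number in their titles. Numbers above 90 belonged to 1 vehicle library (MS-100) and 3 high-dose libraries (MS-98, MS-101 and MS-102), and the labels do not say what the numbers mark. The labels name no rat. The numbers up to 90 run in parallel across liver, kidney and heart within a dose and time, those above 90 do not, and the labels do not say that matching numbers mark a rat, so that they were not used to pair organs.

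High-dose treatment raised more kidney transcripts at 8 h than it lowered. With a term for library numbers above 90, 216 of 18597 transcripts tested were called (1.16%), with adjusted p up to 0.01 in edgeR's quasi-likelihood test and a log2 fold change of at least 0.866 in either direction, which is a 1.82-fold change. Of these, 165 rose (0.887% of those tested) and 51 fell (0.274%). Without the term, 278 were called (1.49%), of which 202 rose (1.09%) and 76 fell (0.409%). Both fits called 197 transcripts, 154 higher and 43 lower. The term added 19 calls, and it removed 81, all of which had the same sign with the term, with adjusted p-values up to 0.0326. With the term, 3608 transcripts (19.4% of those tested) had unadjusted p below 0.05. DESeq2 with the same term called 449 transcripts, 291 higher and 158 lower. Leaving out 1 library at a time in the fit with the term left between 117 and 187 calls, the lowest without the high-dose library MS-57, which was 97 higher and 20 lower.

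**Figure D1:**
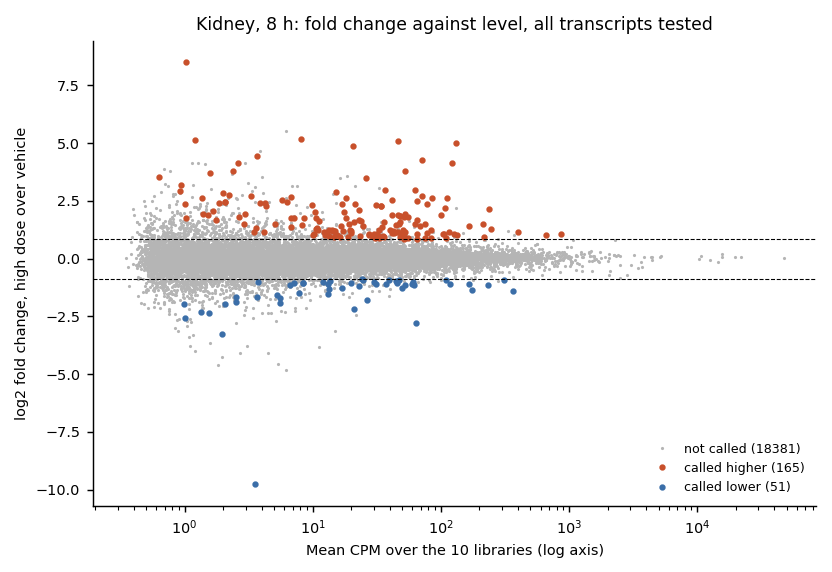
Log2 fold change of high dose over vehicle (y axis) against the mean CPM over the 10 libraries (x axis, log scale) for the 18597 transcripts tested; orange and blue points are the 165 called higher and the 51 called lower, grey points those not called, and dashed lines the fold limit of 0.866 on the log2 scale. Calls run over the whole range of levels up to about 1000 CPM, and the 2 most extreme points are transcripts at 0 in every library of a group, shown at fitted values that are no measure of their size.

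The rises were larger than the falls in these data. The median log2 fold change was 1.5 among the 165 that rose and -1.15 among the 51 that fell, against -0.01 over all transcripts tested. More than 2-fold rises were found for 143 transcripts, more than 4-fold rises for 53, more than 8-fold rises for 16 and more than 16-fold rises for 10. Among the falls, 41 were more than 2-fold, 7 more than 4-fold, 2 more than 8-fold and 1 more than 16-fold. Levels per length are in TPM. The median vehicle level of the transcripts that rose was 5.89 TPM, near the 6.19 TPM of all transcripts tested, and that of the transcripts that fell was 15 TPM. Of the 165, 26 were under 1 TPM with vehicle, and these rose by a median of 2.65 on the log2 scale, against 1.37 for the others. A transcript almost absent with vehicle passes the filter on low counts only where its high-dose libraries are higher, which favours a large rise. The 2 medians are therefore a description, and whether size depends on the vehicle level was not tested.

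Summed over the 165 transcripts, the vehicle libraries held 4205 to 4611 CPM (a count divided by the TMM-scaled size of its library) and the high-dose libraries 10707 to 13416 CPM. Summed over the 51, the vehicle libraries held 3181 to 3619 CPM and the high-dose libraries 1325 to 1554 CPM. These transcripts were chosen by the same libraries, so the sums describe their size and test nothing. The high-dose library MS-38 had the lowest value of its group for 81 of the 165, and the vehicle library MS-100 the highest of its group for 55. In 162 of the 165 every high-dose library was above every vehicle library, as in 5.17% of all transcripts tested. In 50 of the 51 every high-dose library was below every vehicle library, as in 3.6% of those tested. The exceptions, chosen after their values were seen, were ENSRNOT00000015763, ENSRNOT00000074562 and ENSRNOT00000025257 among the rises and ENSRNOT00000091188 among the falls.

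The vehicle libraries taken at 24 h, which the calls did not use, gave another set of controls, while the high-dose libraries were the ones that chose the transcripts. The counts are therefore a description. Every high-dose library at 8 h was above every 24 h vehicle library for 159 of the 165 transcripts that rose, against 6.25% of all transcripts tested. Every high-dose library was below them for 49 of the 51 that fell, against 4.4%.

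Transcripts were named by a rule on level (a mean over the 10 libraries of 2 CPM or more), on groups that did not overlap, and on size, p-value and level among the calls, which gave 25 names. Values by library are given for vehicle in the order MS-40, MS-46, MS-58, MS-59 and MS-100, and for the high dose in the order MS-38, MS-57, MS-98, MS-101 and MS-102. The largest rise among them was that of a transcript almost silent in these kidneys. ENSRNOT00000029994 was at 0.368, 0.4198, 0.237, 0.0994 and 0.808 CPM in the vehicle libraries and at 7.65, 20.5, 12.8, 21.8 and 16.6 CPM in the high-dose libraries, a log2 fold change of 5.17 (SE 0.43, adjusted p = 1.83e-04). The 5 vehicle libraries lay under 1 CPM, and the lowest high-dose library, MS-38, was well above the highest of them, MS-100. ENSRNOT00000029994 would not have passed the filter on low counts by its vehicle libraries, and was tested because its high-dose libraries were higher. In the vehicle libraries at 24 h its median was 0.144 TPM in kidney, 0.127 TPM in liver and 197.7 TPM in heart, so without treatment its level was highest in the heart.

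The next 3 rises were of transcripts present at a low level in all 3 organs. ENSRNOT00000005085 was at 2.65, 1.15, 2.29, 2.24 and 3.499 CPM in the vehicle libraries and at 71.7, 88.9, 96.3, 125 and 72.2 CPM in the high-dose libraries, a log2 fold change of 5.1 (SE 0.24, adjusted p = 3.74e-06). ENSRNOT00000026303 was at 6.85, 6.77, 9.31, 6.56 and 10.1 CPM in the vehicle libraries and at 313, 241, 216, 233 and 262 CPM in the high-dose libraries, a log2 fold change of 5.0 (SE 0.18, adjusted p = 6.23e-07). ENSRNOT00000010712 was at 1.66, 0.997, 1.34, 1.24 and 1.29 CPM in the vehicle libraries and at 47.9, 25.4, 31.4, 50 and 44.2 CPM in the high-dose libraries, a log2 fold change of 4.86 (SE 0.26, adjusted p = 8.26e-06). In each of the 3, no high-dose library came near the vehicle libraries, which were the least even for ENSRNOT00000005085. In TPM, the high-dose mean was highest for ENSRNOT00000026303 at 83.05 TPM, followed by ENSRNOT00000005085 at 50.6 TPM and ENSRNOT00000010712 at 27.1 TPM.

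The smallest adjusted p-value belonged to ENSRNOT00000016768, whose high-dose libraries were the most even of the 12 largest rises. It was at 6.89, 7.45, 8.36, 7.805 and 6.03 CPM with vehicle and at 147, 128, 136, 141 and 129 CPM with the high dose, a log2 fold change of 4.28 (SE 0.10, adjusted p = 2.50e-08). Of nearly the same size was the rise of ENSRNOT00000026652, a transcript with a higher level in kidney than in the other organs: the 24 h vehicle medians were 14.6 TPM in kidney, 2.898 TPM in liver and 0.778 TPM in heart. ENSRNOT00000026652 was at 11.8, 18.3, 15.2, 11.6 and 11.2 CPM in the vehicle libraries and at 247, 224, 216, 246 and 211 CPM in the high-dose libraries, a log2 fold change of 4.15 (SE 0.15, adjusted p = 6.23e-07). Its high-dose mean of 292 TPM was the highest of the 12 largest rises per length. ENSRNOT00000006188 was at 6.89, 6.98, 7.45, 6.56 and 10.8 CPM in the vehicle libraries and at 50.2, 70.99, 71.2, 75.7 and 62.3 CPM in the high-dose libraries, a log2 fold change of 2.97 (SE 0.13, adjusted p = 2.41e-06). The last of these had 1 vehicle library, MS-100, above the other 4, and every high-dose library was higher still.

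A further 3 rises started from a level near 0. ENSRNOT00000091687 was between 0 and 0.538 CPM with vehicle and between 4.31 and 11.1 CPM with the high dose, ENSRNOT00000000792 between 0.157 and 0.377 CPM and between 2.803 and 7.38 CPM, and ENSRNOT00000072149 between 0.105 and 0.442 CPM and between 3.51 and 5.45 CPM. Their log2 fold changes were 4.42 (SE 0.52), 4.16 (SE 0.41) and 3.79 (SE 0.38), with adjusted p-values of 0.00119, 4.31e-04 and 5.01e-04. All 3 were under 1 TPM in the 24 h vehicle libraries of kidney, liver and heart. None of the 3 would have passed the filter on low counts by its vehicle libraries. They were tested because their high-dose libraries were higher, which favours a rise. Their vehicle levels rest on 0 to 12 counts per library, so the sizes of these rises are uncertain.

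The last 3 of the large rises differed in how even the high-dose group was. ENSRNOT00000019192 was at 5.89, 5.88, 7.22, 8.303 and 5.87 CPM in the vehicle libraries and at 44.4, 121, 88.8, 182 and 57.5 CPM in the high-dose libraries, a log2 fold change of 3.8 (SE 0.40, adjusted p = 6.38e-04). Its high-dose libraries were the least even of the large rises, lowest in MS-38 and highest in MS-101, while its vehicle libraries were close together. ENSRNOT00000000628 rose from 4.06 ± 0.643 CPM to 47.6 ± 12.8 CPM (SD, n = 5), with a log2 fold change of 3.47 (SE 0.21, adjusted p = 2.15e-05), and ENSRNOT00000017181 from 14.3 ± 1.93 CPM to 111 ± 23.8 CPM, a log2 fold change of 2.97 (SE 0.18, adjusted p = 1.78e-05). MS-101 was the highest library for all 3.

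The rises named for their high level were smaller than those named for their size, as the naming rule fixes. ENSRNOT00000059255 went from 434 ± 29.7 CPM to 879.5 ± 102.1 CPM (SD, n = 5), with a log2 fold change of 1.02 (SE 0.10, adjusted p = 5.25e-04). ENSRNOT00000050223 went from 253 ± 15.8 CPM to 549 ± 45.5 CPM, a log2 fold change of 1.14 (SE 0.09, adjusted p = 1.06e-04). ENSRNOT00000020225, the most abundant of the transcripts named, at 279 TPM with vehicle and 604 TPM with the high dose, was less even. ENSRNOT00000020225 was at 549.6, 465, 459.8, 439.7 and 802 CPM in the vehicle libraries and at 1062, 1441, 1138, 1233 and 989 CPM in the high-dose libraries. The vehicle library MS-100 lay between the other vehicle libraries and the high-dose libraries. The fit gave a log2 fold change of 1.05 (SE 0.17, adjusted p = 0.0081). It was called in 2 of the 10 fits that left out a library, with an adjusted p-value of 0.0317 without MS-57.

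**Figure D2:**
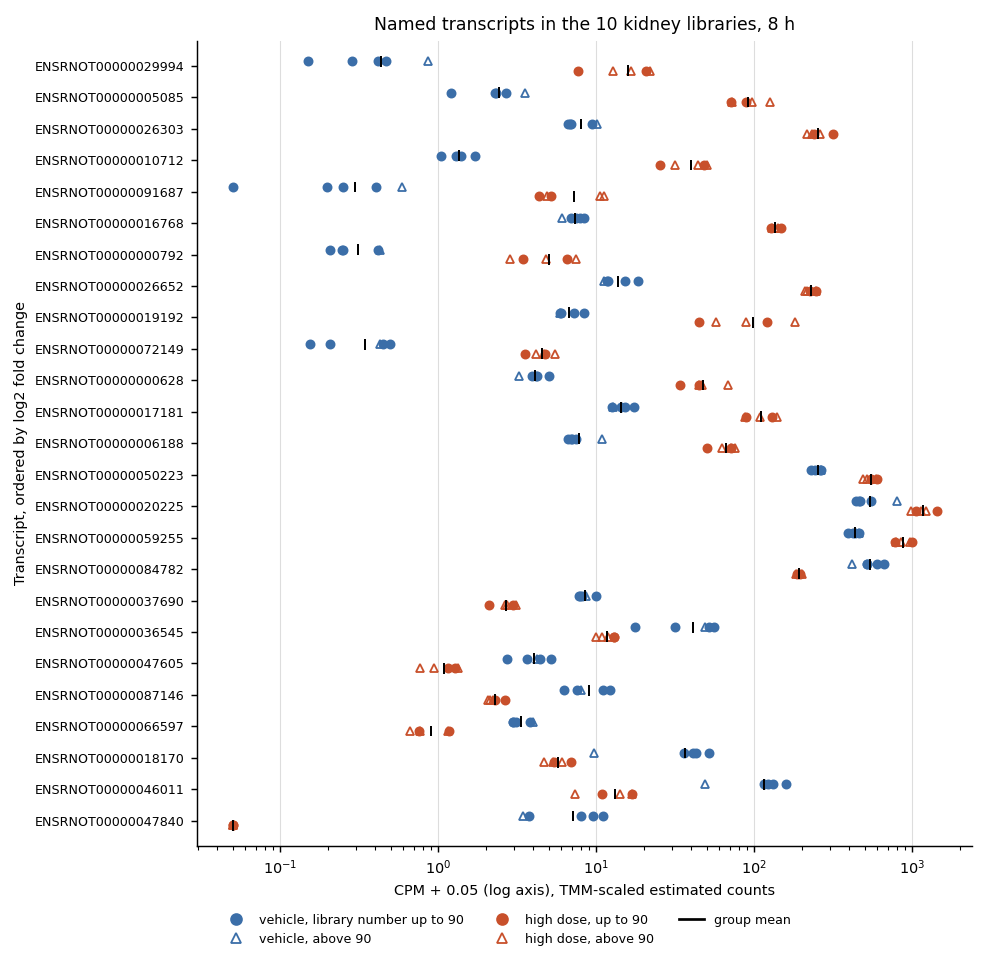
CPM plus 0.05 (x axis, log scale) of the 25 named transcripts (y axis, ordered by log2 fold change) in each of the 10 libraries; blue marks are vehicle and orange marks high dose, filled circles library numbers up to 90, open triangles numbers above 90, and black lines the group means. The groups are apart for every transcript, by the rule that named them, and the open blue triangle of MS-100 is the vehicle mark nearest to the high-dose group for 12 of the 25, among them ENSRNOT00000018170, ENSRNOT00000046011 and ENSRNOT00000020225.

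The falls were led by a transcript that was absent from every high-dose library. ENSRNOT00000047840 was at 3.68, 9.55, 8.01, 10.9 and 3.39 CPM in the vehicle libraries and at 0, 0, 0, 0 and 0 CPM in the high-dose libraries. With 3 counts over the whole high-dose group as the floor, it was at least 220.5-fold lower (adjusted p = 0.00148). Its estimated counts were not whole numbers, so kallisto shared its reads with other targets, and a shift of reads between targets and a fall of the transcript cannot be told apart. It was also at 0 in all 5 low-dose libraries at 8 h. The reverse case was ENSRNOT00000089841, outside the naming rule because of its low mean level and chosen after its values were seen: it was at 0 in every vehicle library and averaged 2.06 CPM with the high dose, at least 75.5-fold higher. Both transcripts passed the filter on low counts only through the group in which they were present.

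Among the named transcripts, the largest fall of a kidney-restricted one, as classed from the vehicle libraries of the organs at 24 h, was that of ENSRNOT00000046011, listed at 0 TPM in the median of the liver and heart vehicle libraries. ENSRNOT00000046011 was at 122, 158, 115, 132 and 48.8 CPM in the vehicle libraries and at 16.8, 10.8, 14.02, 16.9 and 7.27 CPM in the high-dose libraries, a log2 fold change of -2.8 (SE 0.34, adjusted p = 0.00132). MS-100 was the lowest vehicle library, far below the other 4, and was above every high-dose library. A larger fall, of the kidney-restricted ENSRNOT00000082044, was outside the naming rule for its low mean and was picked after its values were seen: it went from 3.62 ± 1.504 CPM to 0.308 ± 0.153 CPM (SD, n = 5), with a log2 fold change of -3.24 (SE 0.45, adjusted p = 0.00321). MS-100 was also the lowest vehicle library for ENSRNOT00000018170. ENSRNOT00000018170 was at 35.7, 42.9, 51.9, 40.97 and 9.64 CPM in the vehicle libraries and at 6.92, 5.36, 5.301, 6.02 and 4.62 CPM in the high-dose libraries. The log2 fold change was -2.17 (SE 0.37, adjusted p = 0.00917), -2.81 in libraries numbered up to 90 and -0.85 in those above 90. It was called in 1 of the 10 fits that left out a library, with an adjusted p-value of 0.0522 without MS-38.

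ENSRNOT00000084782 had the highest mean level of the named falls. It was at 598, 516, 664, 516 and 418 CPM with vehicle and at 195, 185, 191, 199.8 and 184 CPM with the high dose, a log2 fold change of -1.42 (SE 0.13, adjusted p = 2.72e-04). The high-dose libraries were within a narrow band, and MS-100 was again the lowest vehicle library. ENSRNOT00000037690 fell from 8.44 ± 0.918 CPM to 2.65 ± 0.385 CPM (SD, n = 5), with a log2 fold change of -1.71 (SE 0.17, adjusted p = 4.59e-04), and ENSRNOT00000087146 from 8.94 ± 2.47 CPM to 2.23 ± 0.2296 CPM, a log2 fold change of -1.91 (SE 0.22, adjusted p = 0.00108). The adjusted p-value of ENSRNOT00000087146 was 0.0103 without MS-100, and 9 of its 10 fits that left out a library called it.

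The other 3 named falls were called in only some of the fits that left out a library. ENSRNOT00000066597 was between 2.91 and 3.93 CPM with vehicle and between 0.613 and 1.12 CPM with the high dose (log2 fold change -1.96, adjusted p = 0.00298), ENSRNOT00000047605 between 2.69 and 5.09 CPM and between 0.716 and 1.28 CPM (log2 fold change -1.89, adjusted p = 0.00389) and ENSRNOT00000036545 between 17.6 and 55.8 CPM and between 9.99 and 12.9 CPM (log2 fold change -1.81, adjusted p = 0.00829). They were called in 7, 4 and 1 of the 10 fits that left out a library, and without MS-100 the adjusted p-values were 0.026, 0.0282 and 0.0485. MS-100 is the only vehicle library above 90, so without it the term takes up the 3 high-dose libraries above 90 and dose rests on 2 high-dose against 4 vehicle libraries. ENSRNOT00000036545 was uneven among the vehicle libraries, at 51.7, 17.6, 31.6, 55.8 and 48.8 CPM. Of all 216 calls, 90 higher and 12 lower were made in each of the 10 fits, and 11 in none of them.

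Library number moved with dose in these 10 samples, since 3 of 5 high-dose libraries and 1 of 5 vehicle libraries were numbered above 90. Within the libraries up to 90, 2 high-dose against 4 vehicle, 47 transcripts were called, 40 higher and 7 lower. Within those above 90, 3 high-dose against 1 vehicle, 8 were called, 7 higher and 1 lower, with MS-100 assumed to vary like the other libraries. The median log2 fold change of the 165 was 1.44 up to 90 and 1.56 above 90, and that of the 51 was -1.20 and -1.33. All 216 kept their sign in both, which follows for the 212 whose groups did not overlap. Both values passed the fold limit for 177, 138 higher and 39 lower. The term for library number itself gave 0 calls in edgeR, while 5349 transcripts had an unadjusted p-value under 0.05 for it.

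**Figure D3:**
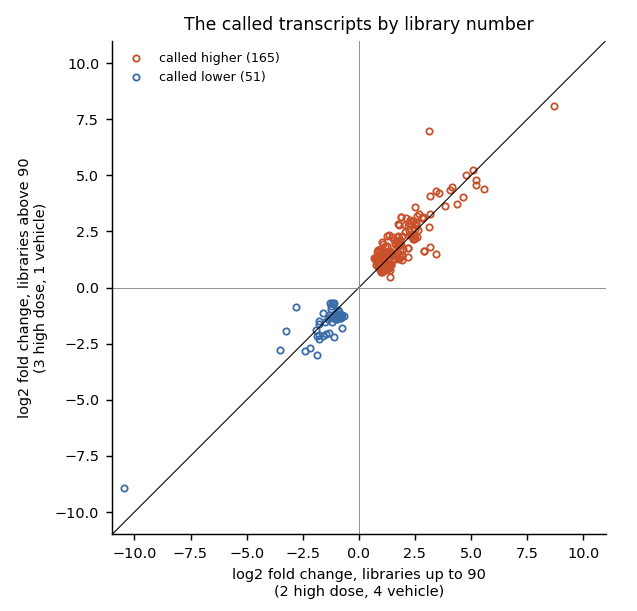
Log2 fold change of high dose over vehicle in the libraries numbered above 90 (y axis) against that in the libraries up to 90 (x axis) for the 216 called transcripts, orange for the 165 called higher and blue for the 51 called lower; the line marks equal values. The transcripts were chosen on all 10 libraries, so that their lying in opposite quadrants is fixed by the choice; the spread around the line shows how the size differs.

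Without the term, the count moved the most when MS-100 was left out. Leaving out MS-100 in that fit gave 920 calls, 376 higher and 544 lower, the only one of these fits with more falls than rises. In that fit every library above 90 was a high-dose library, so that dose and library number cannot be told apart in the 920. Leaving out any other library gave between 161 and 269, with more rises than falls in each. Of these, 161 came without MS-101, 172 without MS-102, 174 without MS-59 and also without MS-98, 175 without MS-40 and 180 without MS-57 and also without MS-58, against 278 with all 10 libraries. Of the 920, 193 were among the 216. In 630 of the 727 others, MS-100 lay outside the other 4 vehicle libraries on the side of the high dose, and in 499 it lay within or past the range of the high-dose libraries. The 727 were chosen by leaving MS-100 out, which favours such positions, so both counts are a description. Their shares over all transcripts tested were not computed. Those 727 were 225 higher and 502 lower.

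The falls held a larger share of transcripts at home in the kidney than the rises did. A transcript was classed as kidney-restricted where its median over the 24 h vehicle libraries was at least 1 TPM in kidney and at least 5 times that in liver and in heart. Of the 51 that fell, 20 were kidney-restricted (39.2%), against 11 of the 165 that rose (6.67%) and 8.19% of all transcripts tested. This class was built from 24 h libraries, which the 8 h calls did not use, and no test was run over transcripts. It asks for at least 1 TPM in kidney, and the falls had a higher median vehicle level than the rises, 15 against 5.89 TPM. The share over all transcripts tested was not matched for level. With edgeR's other settings, DESeq2 and limma, the share among falls ranged from 34.8 to 48.2%, against 5.875 to 8.19% of the transcripts tested. Fewer cells of a type and less RNA per cell cannot be told apart in these whole-kidney libraries.

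The 20 kidney-restricted falls had vehicle means from 1.52 to 542 CPM and a median log2 fold change of -1.30. Besides ENSRNOT00000046011, ENSRNOT00000084782, ENSRNOT00000037690 and ENSRNOT00000036545, they held ENSRNOT00000025403, which went from 84.7 ± 9.04 CPM to 38.4 ± 2.59 CPM (SD, n = 5), and ENSRNOT00000035040, from 11.6 ± 0.553 CPM to 4.05 ± 0.705 CPM, both chosen after their values were seen. At 24 h, in other rats, 12 of the 20 were also called lower, against 2.18% of all transcripts tested there. The 11 kidney-restricted rises, with a median log2 fold change of 1.59, included ENSRNOT00000026652 and ENSRNOT00000020225, and 3 of them were also called higher at 24 h, against 2.21% of all tested. ENSRNOT00000020225 was not low in liver: its 24 h vehicle medians were 301.9 TPM in kidney and 53.83 TPM in liver. Its 8 h vehicle means were 279.1 TPM in kidney and 107.3 TPM in liver, which would not meet the ratio of 5. The 24 h kidney vehicle libraries helped set the class and are also the controls of these 24 h calls. A high vehicle level there favours a call lower, so both counts at 24 h are a description.

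The other organ classes held shares of the rises near those of all transcripts tested. Of the 165, 131 were in the shared or mixed class (79.4%), 15 were under 1 TPM in all 3 organs (9.09%), 5 were at least 5 times as high in heart as in kidney (3.03%) and 3 at least 5 times as high in liver (1.82%). Over all transcripts tested, these shares were 74.1%, 10.9%, 4.25% and 2.56%. Among the 51 falls, 28 were shared or mixed (54.9%), 1 was under 1 TPM in all organs, 2 were liver-biased and 0 heart-biased.

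**Figure D4:**
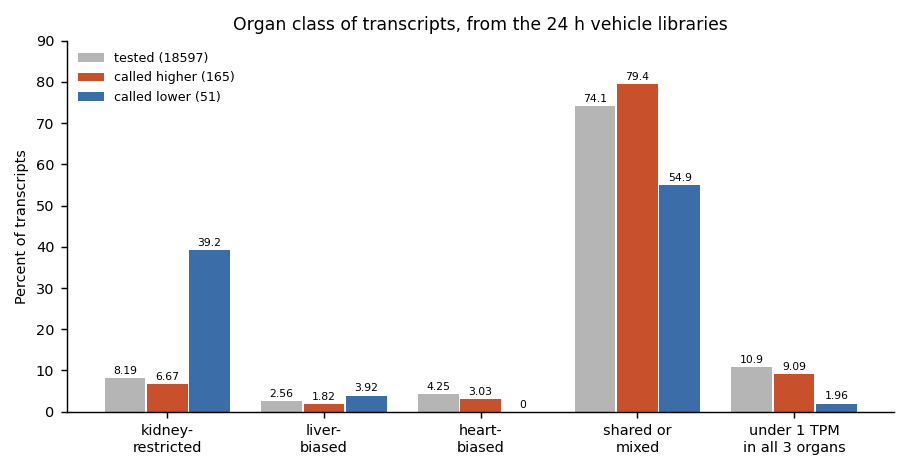
Percent of transcripts (y axis) in each organ class (x axis, from the median TPM of the 24 h vehicle libraries) among the 18597 tested (grey), the 165 called higher (orange) and the 51 called lower (blue). The kidney-restricted bar is 39.2% for the falls, against 6.67% for the rises and 8.19% for all tested.

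At 24 h after the high dose, in other rats, 832 of 18967 kidney transcripts were called (4.39%), 419 higher (2.21%) and 413 lower (2.18%). Those rats were injected in the late afternoon, had food until the last 8 h and were sampled at the same time of day as the 8 h rats, so time after dose and hour of dosing cannot be told apart. Of the 165 that rose at 8 h, 163 were tested at 24 h, 61.2% of the 165 were called higher there, and none was called lower. Of the 51 that fell, 26 were called lower at 24 h and none higher. The same sign was found for 159 of the 163 and for 50 of the 51. The median log2 fold changes at 24 h were 1.33 for the rises and -1.16 for the falls, against 0.01 over all transcripts tested. The 127 transcripts called the same way at both times were 58.8% of those called at 8 h and 15.3% of those called at 24 h.

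The size of the effect differed between 8 and 24 h, by the interaction of dose and time, for 176 of 19959 transcripts (0.882%) and for 23 of the 216. That total was 100 without the high-dose library MS-38, and without MS-57 it was 28 higher and 78 lower at 24 h than at 8 h. The 8 h fold change that chose the 216 also enters this test. Among the 15 rises that differed, 10 were smaller at 24 h and 5 larger. ENSRNOT00000026303 was at 7.92 ± 1.66 CPM with vehicle and 253 ± 37.5 CPM with the high dose at 8 h, and 7.52 ± 1.45 CPM and 46.4 ± 7.75 CPM at 24 h (interaction -2.33 on the log2 scale, adjusted p = 1.44e-05). ENSRNOT00000020225, at 635 ± 153 CPM with vehicle and 467 ± 104 CPM with the high dose at 24 h, had a log2 fold change of -0.48 there (adjusted p = 0.124) (interaction -1.52 on the log2 scale, adjusted p = 0.00365). In the other direction, ENSRNOT00000000628 was at 4.18 ± 0.894 CPM and 181 ± 28.3 CPM at 24 h, a larger rise than at 8 h (interaction 1.93 on the log2 scale, adjusted p = 4.01e-04). Outside the named set, and chosen after its values were seen, was ENSRNOT00000012537, at 113 ± 28.04 CPM with vehicle and 315 ± 48.9 CPM with the high dose at 8 h, and 166 ± 12.4 CPM and 143 ± 7.72 CPM at 24 h (interaction -1.7 on the log2 scale, adjusted p = 7.44e-05).

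Among the 8 falls that differed, 6 were larger at 24 h and 2 smaller. ENSRNOT00000046011 was at 115 ± 40.7 CPM with vehicle and 13.2 ± 4.13 CPM with the high dose at 8 h, and 117 ± 36.99 CPM and 111 ± 43.6 CPM at 24 h (interaction 2.65 on the log2 scale, adjusted p = 0.00546), so that the groups differed at 8 h but by less than the spread between libraries at 24 h. ENSRNOT00000066597 likewise was at 2.502 ± 0.443 CPM with vehicle and 2.99 ± 0.895 CPM with the high dose at 24 h (interaction 2.23 on the log2 scale, adjusted p = 0.00143). ENSRNOT00000037690 went the other way, to 8.92 ± 1.86 CPM with vehicle and 0.686 ± 0.267 CPM with the high dose at 24 h (interaction -2.02 on the log2 scale, adjusted p = 0.00144). So did ENSRNOT00000012948, chosen after its values were seen, at 79.2 ± 20.4 CPM with vehicle and 42.4 ± 7.03 CPM with the high dose at 8 h, and 93.95 ± 6.26 CPM and 6.69 ± 2.26 CPM at 24 h (interaction -2.85 on the log2 scale, adjusted p = 7.67e-06). It was not called at 8 h without the library number term, with an adjusted p-value of 0.013.

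In the liver 8 h after the high dose, calls numbered 3323 among 16468 transcripts (20.2%), 2046 higher (12.4%) and 1277 lower (7.75%). Of the 165 kidney rises, 161 were tested in the liver, 141 were called higher there and 1 lower, and the median log2 fold change was 2.70, against 1.5 in the kidney. The 1 called lower was ENSRNOT00000089290, with a log2 fold change of 1.24 in the kidney and -1.43 in the liver. Both the kidney at 24 h and the liver at 8 h called 95 of the 165 higher, the liver alone called 46, the kidney at 24 h alone called 6, and 18 were called in neither. The study took the organs from the same rats, while the fits treated the libraries of each organ as independent samples.

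Of the 51 falls, 31 were tested in the liver, 15 were called lower there and 5 higher. Over all transcripts tested in the liver, 7.75% were called lower and 12.4% higher. The 5 of 31 are near the share called higher, so they do not set the falls apart. The 5 were ENSRNOT00000084782, ENSRNOT00000018170, ENSRNOT00000015576, ENSRNOT00000018494 and ENSRNOT00000027828. ENSRNOT00000084782, which fell from 166 to 58.2 TPM in the kidney, rose from 9.52 to 33 TPM in the liver (interaction 3.07, adjusted p = 4.96e-07). ENSRNOT00000018170 fell from 30.1 to 4.64 TPM in the kidney and rose from 1.64 to 7.76 TPM in the liver (interaction 4.26, adjusted p = 7.02e-06). Its kidney fall was called in 1 of the 10 fits that left out a library. The kidney counts of ENSRNOT00000084782 and ENSRNOT00000018170 were not whole numbers. For both, a shift of reads between targets and a change of the transcript cannot be told apart. Of the 20 kidney-restricted falls, 6 were tested in the liver, with 1 called lower and 2 higher, and of the 11 kidney-restricted rises 9 were tested there and all 9 were called higher.

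The effect differed between kidney and liver, by the interaction of dose and organ, for 2498 of 19891 transcripts (12.6%) and for 93 of the 216, where again the kidney fold change that chose them enters the test. Of the 93, 89 were among the 192 tested in the liver, and the other 4, all falls, were too low there to be tested and entered through their kidney counts. Of the 74 rises that differed, 7 were smaller in the liver and the others larger. ENSRNOT00000026652 rose from 17.3 to 292 TPM in the kidney and from 1.54 to 149 TPM in the liver (interaction 2.29, adjusted p = 3.27e-05). ENSRNOT00000005085 reached 50.6 TPM in the kidney and 153 TPM in the liver, from 1.33 and 1.12 TPM (interaction 1.93, adjusted p = 0.00411). For ENSRNOT00000016768, the log2 fold changes were 4.28 and 3.96 (interaction -0.32, adjusted p = 0.473).

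**Figure D5:**
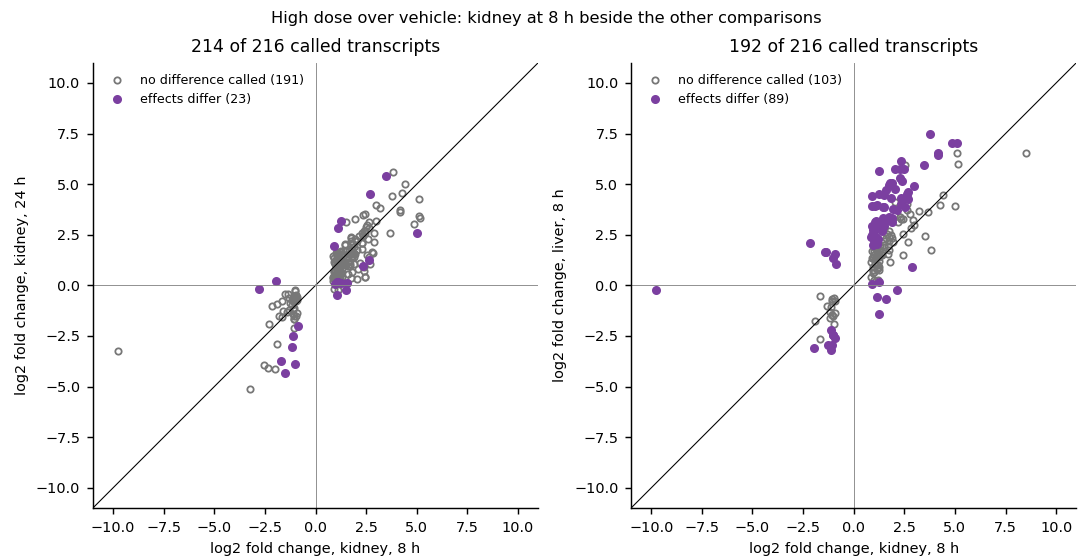
Log2 fold change of high dose over vehicle in the kidney at 24 h (left, 214 of the 216 called transcripts) and in the liver at 8 h (right, 192 of the 216) against that in the kidney at 8 h (x axes); filled purple points are transcripts whose effects differed by the interaction test, 23 on the left and 89 on the right, and the line marks equal values. On the left no difference was called for 191 points, and some of the others lie far from the line, such as ENSRNOT00000046011 (-2.8 at 8 h and -0.18 at 24 h). On the right most of the rises lie above the line.

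In the heart at 8 h, 3 of 17519 transcripts were called (0.0171%), with a count between 1 and 6 when 1 library was left out. Of the 216, 1 was among them, ENSRNOT00000028066, with a log2 fold change of 1.68 in the heart, 1.11 in the kidney and 2.78 in the liver. The median log2 fold change in the heart was 0.19 for the 140 rises tested there and -0.04 for the 28 falls. The heart-biased transcripts among the named rises were ENSRNOT00000029994, with a log2 fold change of 0.05 in the heart (adjusted p = 0.914), and ENSRNOT00000019192, with 0.52 (adjusted p = 0.452). This class sets heart against kidney only. ENSRNOT00000019192 was nearly as high in liver, with 24 h vehicle medians of 16.69 TPM in heart, 13.98 TPM in liver and 3.233 TPM in kidney.

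The low dose at 8 h, compared with the same vehicle libraries, gave 64 calls among 18829 transcripts (0.34%), 45 higher and 19 lower, and 41 without the library number term. Leaving out 1 library gave 28 calls without the low-dose library MS-39, 47 without MS-42 or without the vehicle library MS-46, and 29 to 41 without each of the others. Both doses share the vehicle libraries, which also chose the transcripts, so the values are given side by side as a description. Against those vehicle libraries, the median log2 fold change at the low dose was 0.64 for the 165 rises and -0.86 for the 51 falls, and -0.01 over all transcripts tested. With vehicle, the low dose and the high dose, ENSRNOT00000026303 was at 7.92 ± 1.66 CPM, 24.99 ± 4.73 CPM and 253 ± 37.5 CPM (SD, n = 5 each). ENSRNOT00000016768 was at 7.31 ± 0.892 CPM, 35.5 ± 2.61 CPM and 136 ± 8.07 CPM, and ENSRNOT00000026652 at 13.6 ± 3.07 CPM, 102.1 ± 9.36 CPM and 229 ± 16.7 CPM. These 3 were stepped by dose. ENSRNOT00000010712 was at 1.31 ± 0.237 CPM, 1.798 ± 0.441 CPM and 39.8 ± 10.8 CPM, with the low-dose mean next to vehicle. ENSRNOT00000017181 was at 14.3 ± 1.93 CPM, 101.5 ± 21.4 CPM and 111 ± 23.8 CPM and ENSRNOT00000059255 at 434 ± 29.7 CPM, 1102 ± 93.4 CPM and 879.5 ± 102.1 CPM, and here the low-dose mean was close to or above the high-dose mean. Among the falls, ENSRNOT00000084782 was at 542 ± 92.99 CPM, 330.2 ± 37.1 CPM and 191 ± 6.604 CPM and ENSRNOT00000037690 at 8.44 ± 0.918 CPM, 2.38 ± 0.691 CPM and 2.65 ± 0.385 CPM.

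The estimated counts of the called transcripts were whole numbers in all 10 libraries, within 0.001, for 114 of 216 (52.8%), against 40.9% of the transcripts tested. For the others, kallisto divided reads between targets, and their values depend on that division. In all, 3 pairs of called transcripts shared every count in all 10 libraries, ENSRNOT00000089383 with ENSRNOT00000032290, ENSRNOT00000080585 with ENSRNOT00000077454, and ENSRNOT00000071447 with ENSRNOT00000080096, so that 6 of the 216 calls are not separate measurements. The median length of the called transcripts was 2070 bases, against 2148 bases for all tested.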

How the data were processed

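Poly-A RNA from powdered tissue was made into stranded libraries and sequenced as 75-base read pairs. The authors pseudoaligned the reads with kallisto 0.42.2 to Rnor_6.0 transcripts and genomic intervals, and deposited 1 file per sample with an estimated count and a TPM value for each target. The study's own model of the changes was not used here. Estimated counts of the Ensembl transcripts were rounded and fitted with edgeR 4.0.16 in R 4.3.3 (filterByExpr, TMM scaling, quasi-likelihood test, Benjamini-Hochberg adjustment over all transcripts tested), with dose and a term for library numbers above 90, and again without that term. A transcript was called at an adjusted p of at most 0.01 and a natural-log fold change of at least 0.6 in size. The liver and heart fits held dose alone. An interaction was called at the same adjusted p. The standard error of a log2 fold change was its size divided by the square root of F. CPM were scaled by TMM over all 30 kidney libraries.

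Among calls whose groups did not overlap and whose mean was 2 CPM or more, the rule named the 12 largest rises, the 8 largest falls, the 4 smallest adjusted p-values and the 4 highest means. The members, lists and rules were chosen with earlier results of these data known. No table used here pairs the transcripts with genes or sequences, so lists of pathway genes and cell type markers were not run. The organ classes used the TPM deposited by the authors. Alternatives were DESeq2 1.42.0, limma 3.58.1 with a pseudocount of 1 or 0.1 TPM on the log2 scale, other filters on low counts, the genomic intervals kept in the fit, their share of counts as covariate, all 15 kidney samples of 8 h in one fit, and each library left out in turn. The analyses of the other comparisons without single libraries, of the ratio between organs and of the interaction between organs without the library number term were added after seeing the data. The fit was tested on simulated data that held no effect of library number. Changes were placed only in transcripts with a mean of 2 CPM or more, so recovery at lower levels was not measured. With the term the fit recovered 42% of changes of 1 and 80% of changes of 2 on the log2 scale. Without the term these were 55% and 85%, and neither fit called an unchanged transcript. A transcript not called may therefore still have changed. Totals of 16919807 to 27675017 estimated counts on transcripts per library set the counting precision. Among the 45 pairs of the 10 libraries none held identical values.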

Additional observations from a re-analysis of the deposited data

Results flagged for a closer look

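The vehicle library MS-100 stood apart from the other 4 vehicle libraries for ENSRNOT00000006188, at 10.82 CPM, by Dixon's test. It was 1 of 49 groups examined among the named transcripts, and chance gives about 1 in 20.

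Among the named transcripts, the effect at 24 h differed from that at 8 h, by the interaction of dose and time, for 6. The log2 fold change at 24 h minus that at 8 h was -2.33 for ENSRNOT00000026303, 1.93 for ENSRNOT00000000628 and -1.52 for ENSRNOT00000020225, which rose at 8 h. It was 2.65 for ENSRNOT00000046011, 2.23 for ENSRNOT00000066597 and -2.02 for ENSRNOT00000037690, which fell at 8 h.

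The effect in the liver differed from that in the kidney, by the interaction of dose and organ, for 14 named transcripts. For the rises, the log2 fold change in liver minus that in kidney was 1.93 for ENSRNOT00000005085, 2.20 for ENSRNOT00000010712, 2.37 for ENSRNOT00000000792, 2.29 for ENSRNOT00000026652, 3.76 for ENSRNOT00000072149, 2.50 for ENSRNOT00000000628, 1.92 for ENSRNOT00000017181 and 1.14 for ENSRNOT00000050223. The value of ENSRNOT00000072149 rests on a liver vehicle mean near 0, at 0.006063 TPM. Its high-dose means were alike, at 1.465 TPM in liver and 1.41 TPM in kidney. For the falls, it was 5.38 for ENSRNOT00000046011, 4.26 for ENSRNOT00000018170, 3.02 for ENSRNOT00000037690, 3.07 for ENSRNOT00000084782 and -1.12 for ENSRNOT00000066597. ENSRNOT00000046011 and ENSRNOT00000037690 were too low in the liver to be tested there, so that their values set a kidney fall beside liver counts near 0 and are no measure of a liver effect. For ENSRNOT00000047840, at 0 in every high-dose kidney library, the fitted value of 9.26 depends on the prior count and is no measure of size.

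Outside the transcripts, 216 of 11131 genomic intervals tested were called in the kidney at 8 h when the intervals were kept in the fit, 113 of them lower and the others higher.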

How the results depend on the processing

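Called were 47 transcripts in libraries up to 90 (40 higher, 7 lower), 8 above 90 (7 higher, 1 lower), 449 with DESeq2 (291 higher, 158 lower), and 84 lower with all 15 samples. The cause of the difference between tools was not tested, and the fits within a library class held fewer samples, above 90 a vehicle arm of MS-100 alone. Leaving out 1 library gave 117 to 187 calls (97 to 148 higher, 20 to 46 lower). The falls numbered 20 without MS-57, 28 without MS-58, 30 without MS-100 and 33 without MS-102. Without the library number term the range was 161 to 920 (128 to 376 higher, 33 to 544 lower). The low dose gave 41 calls without the term and 28 to 47 without 1 library, the kidney at 24 h 576 to 874, the heart 1 to 6, the time interaction 100 to 228 and the organ interaction 1679 to 2903. The p of the total counts ranged from 0.0159 to 0.143.

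At a ratio of 10 between organs, 2.42% of the rises were kidney-restricted, against 5.68% of all transcripts tested. At a ratio of 3, 54.9% of the falls were, against 12.29% of all tested. Without 1 library, at the ratio of 5, the shares were 6.08 to 9.24% of the rises and 34.3 to 50% of the falls. Of the rises, 90% were called higher at 24 h in the fit up to 90, 49.1% with DESeq2 and 64.1 to 71.1% without 1 library. Of the falls, 31% were called lower at 24 h with DESeq2 and 37.1 to 65% without 1 library.

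The naming rule fixes the direction of the named transcripts in any subset of the libraries. Of the 25, 22 were no longer called above 90 and 11 up to 90, as in 36 of the 250 results with 1 library left out. Sums per gene were not run, as no table paired transcripts with genes. No paired analysis was possible because high dose and vehicle were given to different rats and the labels state no replicate numbers that the groups share. The organs of a rat were not paired, since the labels do not state which libraries share one. Estimated counts shared between targets limit single transcripts, and what the library numbers mark was not tested.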
